A study of Mus musculus with 12 samples.

Results

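The Hedgehog pathway genes described here are Gli1, Gli2, Gli3, Ptch1, Smo, Hhip, Sufu, Boc and Cdon, 9 of the 55335 genes counted in 12 RNA-seq libraries of cultured mouse FAPs. FAPs, or fibro-adipogenic progenitors, are mesenchymal cells from the space between the fibres of a muscle, and fibroblasts and adipocytes can arise from them. The genes were chosen by symbol and matched to the Ensembl gene IDs of the count files. All 9 passed the filter on low counts, among 16597 genes tested. The list uses no threshold on a measured value, but it was drawn up with earlier results of these data known, so the values below describe the genes and are not offered as independent evidence about them.

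Per the labels, the cells were sorted from fore- and hindlimb muscle as live (7AAD-), Lin-, Vcam-, Sca1+ cells and cultured in alpha-MEM that held 20% FBS (fetal bovine serum). There were 4 groups of 3 libraries. Smn1OE_K186R cells received 1 µM 4-hydroxytamoxifen (4-OHT) for deletion of Bap1, a nuclear deubiquitinase, and a vector for human SMN with the K186R point mutation. Smn1OE cells received 4-OHT and a vector for unmutated human SMN, the survival of motor neuron protein. Bap1KO cells received 4-OHT alone, and WT cells received ethanol. The 4-OHT medium was replaced after 24 hours. The treatment text names Rosa-CreER as the recombinase, whereas the source labels of the Smn1OE_K186R, Smn1OE and Bap1KO libraries name Prrx1Cre;Bap1f/f mice. No group with an empty vector and no group with 4-OHT but intact Bap1 was analysed here. The labels give culture media batches D, E and F to replicates 1, 2 and 3 of Smn1OE_K186R and of Smn1OE, and batches A, B and C to those of Bap1KO and of WT. In comparisons between an SMN group and Bap1KO or WT, the media batch and the group therefore cannot be told apart. The labels do not say that replicates are separate animals, so the p-values measure the spread between these libraries, which may be technical.

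The libraries held 51.2 to 68.2 M counts in genes. Bap1 averaged 45.3 ± 3.15 CPM (TMM-normalised counts per M counts) in Smn1OE_K186R, 49.1 ± 1.4 CPM in Smn1OE, 40.3 ± 1.73 CPM in Bap1KO and 50.5 ± 1.32 CPM in WT (SD, n = 3 each). These are counts over the whole gene and the sources used here do not give the deleted part, so they do not check the deletion. Smn1 stood at 3687 to 4354 CPM in Smn1OE_K186R and 3791 to 5591 CPM in Smn1OE, against 30.4 to 35.1 CPM in Bap1KO and 31.6 to 34.8 CPM in WT. Xist stood at 0 to 0.113 CPM in Smn1OE_K186R and 0.0149 to 0.0189 CPM in Smn1OE, against 197 to 305 CPM in Bap1KO and 200 to 264 CPM in WT, and the Y-linked Ddx3y, Eif2s3y, Kdm5d and Uty had reads in every SMN library and in no Bap1KO or WT library. By these transcripts every SMN library reads as male and every Bap1KO and WT library as female, along the same line as the media batches. Comparisons between an SMN group and Bap1KO or WT are therefore also comparisons between cells of different sex. Of 10 FAP markers, 7 averaged over 1 CPM in Smn1OE_K186R and in Smn1OE, and 9 did so in Bap1KO and in WT. Their summed level was 4142 to 5840 CPM in Smn1OE_K186R, 3457 to 5343 CPM in Smn1OE, 8896 to 15729 CPM in Bap1KO and 14033 to 20467 CPM in WT. Most of that sum was Col1a1, at 3202 to 4446 CPM in Smn1OE_K186R, 2655 to 4154 CPM in Smn1OE, 6829 to 10789 CPM in Bap1KO and 10397 to 14312 CPM in WT. The 5 tenocyte markers, 4 of them over 1 CPM in each group, summed to 36.9 to 59.4 CPM in Smn1OE_K186R, 25.9 to 37.8 CPM in Smn1OE, 184 to 454 CPM in Bap1KO and 237 to 415 CPM in WT. The 6 adipocyte markers, 5 of them over 1 CPM in each group, summed to 60.02 to 98.2 CPM in Smn1OE_K186R, 64.3 to 83.2 CPM in Smn1OE, 105 to 290.1 CPM in Bap1KO and 131 to 246 CPM in WT. Fmod held most reads of the tenocyte markers and Lpl most of the adipocyte markers. Against WT, 1 of 4 tested tenocyte markers had a positive log2 fold change in each SMN group (0.65 in Smn1OE_K186R, 0.69 in Smn1OE). So had 2 of 6 adipocyte markers (at most 0.44 in Smn1OE_K186R and 0.65 in Smn1OE). The others were negative. Dpp4 was under 0.2 CPM in every library, and the satellite cell genes Pax7, Myod1 and Myf5 had no reads in most libraries and at most 0.0189 CPM. They belong to a list of 8 myogenic markers, of which 2 averaged over 1 CPM in each group. That list summed to 80.5 to 116 CPM in Smn1OE_K186R, 65.7 to 104 CPM in Smn1OE, 106 to 177 CPM in Bap1KO and 134 to 180 CPM in WT. Its Vcam1 had 89208 reads over the 12 libraries, although the cells were sorted as Vcam-, and Des had 1751.

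Hedgehog signalling starts when a secreted ligand (Sonic, Indian or Desert hedgehog) binds Ptch1 together with the co-receptors Boc, Cdon or Gas1. Free Ptch1 holds back Smo, a membrane protein that acts in the primary cilium, and ligand lifts that hold, so that Gli2 and Gli3 escape from Sufu and from processing into repressors. Gli1 and Ptch1 are direct targets of active Gli proteins and are commonly read as reporters of the pathway, and Hhip, a decoy that binds ligand, is a target in many tissues. In skeletal muscle, ciliated FAPs are known to answer Hedgehog ligand, and the signal is known for restraining their turn to adipocytes.

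Compared per length of merged exons, as RPKM (CPM per kilobase), the genes spanned a wide range of levels in every group. In WT, Smo was highest at 15.3 ± 1.79 RPKM, followed by Boc at 9.43 ± 0.977 RPKM, Sufu at 4.61 ± 0.255 RPKM, Cdon at 2.65 ± 0.606 RPKM, Gli3 at 2.03 ± 0.189 RPKM, Gli2 at 1.53 ± 0.131 RPKM, Ptch1 at 0.602 ± 0.0323 RPKM, Hhip at 0.251 ± 0.126 RPKM and Gli1 at 0.0604 ± 0.0266 RPKM (SD, n = 3). Only Cdon and Gli3 overlapped among the neighbours in this WT order. Smo was first in all 4 groups and Ptch1 was the seventh in all 4. Gli1 was last in 3 of the groups; in Bap1KO it averaged 0.272 ± 0.159 RPKM, above Hhip at 0.0937 ± 0.0237 RPKM, with overlapping libraries. Boc and Sufu were apart in Bap1KO and WT and overlapped in Smn1OE_K186R and Smn1OE. The ratio of the highest to the lowest group mean, in CPM, was 4.50 for Gli1, 2.68 for Hhip, 2.62 for Cdon, 2.07 for Gli2, 2.05 for Boc, 1.49 for Gli3, 1.39 for Smo, 1.32 for Ptch1 and 1.10 for Sufu.

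**Figure D1:**
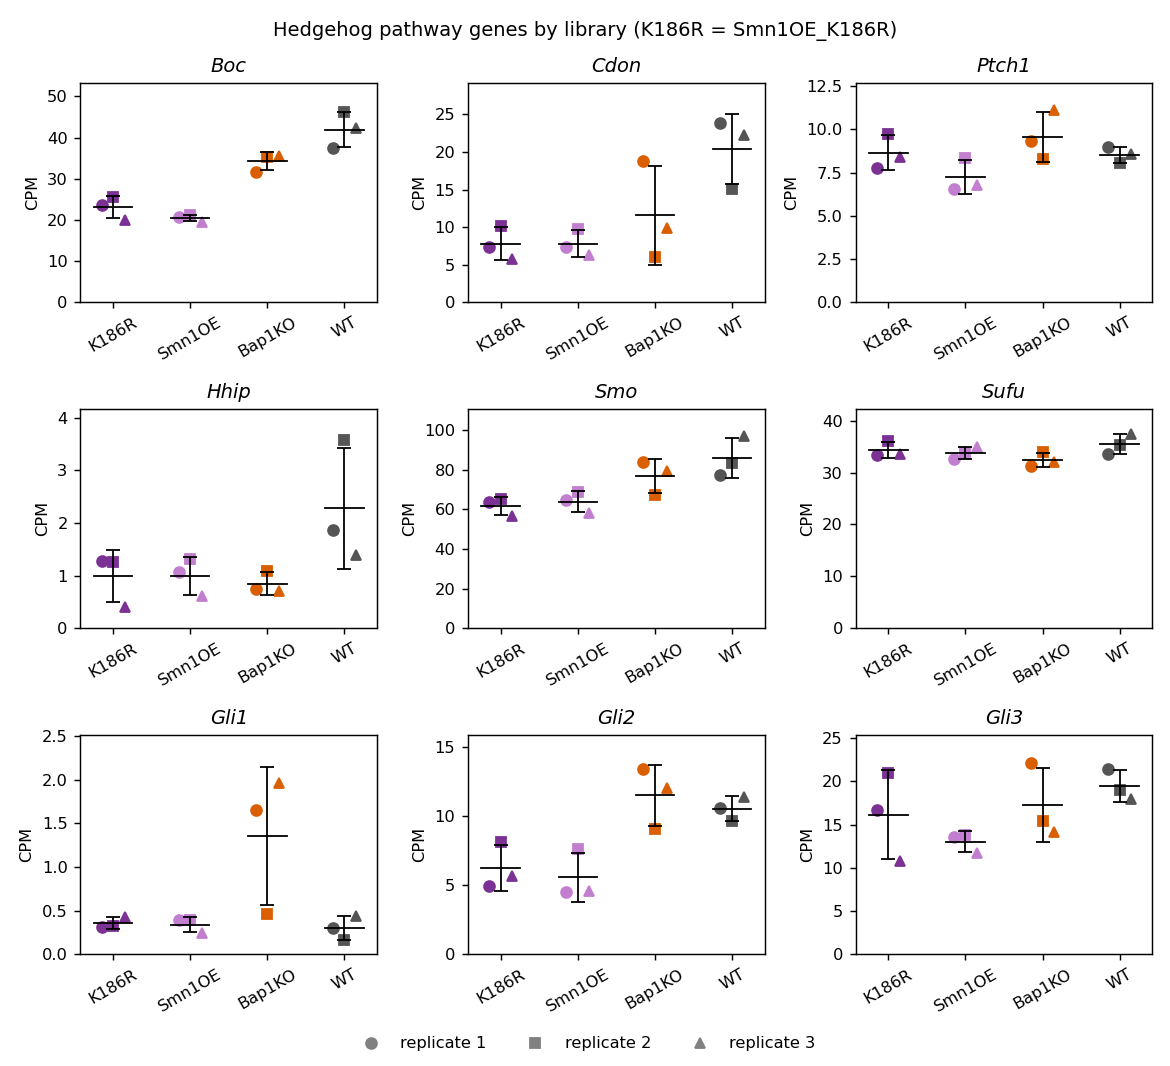
TMM-normalised CPM (linear axes from 0) of the 9 Hedgehog pathway genes in each library, by group; marker shapes are replicates 1 to 3, and the horizontal line with bars is the mean with its SD (n = 3). Gli1 is higher in Bap1KO replicates 1 and 3 than in any other library, Boc is lowest in both SMN groups, and Sufu is nearly level.

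Bap1KO cells carried more Gli1 than WT cells, while Ptch1 averaged 9.57 CPM in Bap1KO and 8.54 CPM in WT and was not called. Of the 9 genes, 1 was called (adjusted p under 0.05), Gli1, against 9.72% of all tested genes called in either direction, 3.36% higher and 6.37% lower. Gli1 and 2 further genes, Hhip and Boc, had Bap1KO and WT libraries that did not overlap, against 32.3% of all tested genes, 14.5% with Bap1KO above and 17.8% with Bap1KO below. The median log2 fold change (Bap1KO over WT) was -0.16 over the 9 genes and 0.00 over all tested genes. With the media batch as a block, 4 of the 9 genes were called, 1 higher and 3 lower, against 29% of all tested genes, 11.9% higher and 17.2% lower.

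Gli1, the transcription factor whose own gene is a target of the pathway, had 1.65, 0.457 and 1.96 CPM in Bap1KO replicates 1, 2 and 3, against 0.304, 0.168 and 0.433 CPM in WT. These values come from 111, 30 and 108 reads in Bap1KO and 20, 11 and 28 reads in WT. Replicates 1 and 3 of Bap1KO stood well above all WT libraries, and replicate 2 lay just above the highest of them. For Gli1 the log2 fold change was 2.16 (SE 0.51, 4.47-fold), with an adjusted p of 0.0222 by edgeR's quasi-likelihood test with Benjamini-Hochberg adjustment. Within media batches A, B and C the log2 difference between Bap1KO and WT was 2.44, 1.44 and 2.17, higher in Bap1KO in 3 of 3 pairs. With the media batch as a block the log2 fold change was 2.08 (SE 0.36, adjusted p = 0.000883). The call held in 14 of 18 alternatives. It did not hold in a fit of the Bap1KO and WT libraries alone (adjusted p = 0.0559), nor without Bap1KO replicate 3 (0.0904), WT replicate 1 (0.0794) or WT replicate 2 (0.0776). In GENCODE M21, exons of Gli1 share 265 bases with Gm47200 and 62 bases with Arhgap9, both on the opposite strand. Gm47200 had 0 reads in all 12 libraries, and Arhgap9 had 0 to 11 reads per library. The strand setting of the counting is not stated.

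Ptch1, the receptor that is also a target, had 9.36, 8.26 and 11.1 CPM in Bap1KO, against 8.99, 8.07 and 8.56 CPM in WT. The libraries overlapped, and only Bap1KO replicate 3 stood clear of the WT range by more than 1 CPM. Within media batches A, B and C the log2 difference of Ptch1 was 0.06, 0.03 and 0.38, higher in Bap1KO in 3 of 3 pairs. The log2 fold change was 0.16 (SE 0.15), with a 95% interval of -0.15 to 0.48 and an adjusted p of 0.516. Differences of Ptch1 within that interval remain compatible with the data. Per 100 Ptch1 reads there were 17.7, 5.54 and 17.7 Gli1 reads in Bap1KO, against 3.38, 2.08 and 5.06 in WT. All Bap1KO values lay above all WT values, and the exact permutation p, 2-sided, was 0.1, the smallest that 3 libraries against 3 allow (0.36 adjusted over 18 comparisons of ratios).

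Hhip, the ligand decoy, had 0.745, 1.10 and 0.708 CPM in Bap1KO, against 1.87, 3.57 and 1.39 CPM in WT. Every Bap1KO library lay below every WT library, and WT replicate 2 was the highest. Its log2 fold change was -1.42 (SE 0.46), with an adjusted p of 0.0724 without a block and 0.000973 with the media batch as a block. In batches A, B and C the difference was -1.33, -1.70 and -0.97. Gli1 and Hhip, both counted among the targets of the pathway, thus stood on opposite sides of WT in all 3 batches.

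Promoter windows are shown for Ptch1 and Hhip, both described as Gli targets. Whether these sequences bear on the values of the genes was not tested. RefSeq sequences on GRCm38.p6 were at hand for 7 of the 9 genes (Gli2, Gli3, Ptch1, Smo, Hhip, Sufu and Cdon). Cdon is added as the only co-receptor among these 7. Each window is the 250 bases before the gene's start, and capitals mark the GC box GGGCGG on either strand. The windows are chr13:63565736-63565985 (minus strand) for Ptch1, chr8:80058009-80058258 (minus strand) for Hhip and chr9:35451826-35452075 (plus strand) for Cdon.
Ptch1: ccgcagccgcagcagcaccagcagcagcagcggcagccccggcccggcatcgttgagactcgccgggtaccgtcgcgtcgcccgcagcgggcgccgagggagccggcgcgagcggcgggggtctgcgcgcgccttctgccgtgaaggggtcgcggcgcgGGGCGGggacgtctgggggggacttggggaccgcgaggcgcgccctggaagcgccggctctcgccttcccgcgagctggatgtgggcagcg
Hhip: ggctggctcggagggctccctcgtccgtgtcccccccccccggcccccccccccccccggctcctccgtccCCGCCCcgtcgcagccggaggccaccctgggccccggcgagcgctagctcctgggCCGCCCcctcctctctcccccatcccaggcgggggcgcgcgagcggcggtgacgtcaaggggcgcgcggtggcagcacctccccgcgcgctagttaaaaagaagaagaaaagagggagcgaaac
Cdon: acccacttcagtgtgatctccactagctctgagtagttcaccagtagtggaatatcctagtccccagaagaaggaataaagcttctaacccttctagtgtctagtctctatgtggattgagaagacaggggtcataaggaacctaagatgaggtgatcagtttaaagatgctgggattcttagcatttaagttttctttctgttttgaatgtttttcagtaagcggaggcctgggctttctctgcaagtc
The GC box was in 5 of the 7 windows and in 32.7% of all 32851 windows of this length. The Gli consensus GACCACCCA, read on both strands, was in 0 of the 7 windows and in 0.225% of all windows. No match says only that these letters are not in the window. The G and C content was 78.4% for Ptch1, 76.0% for Hhip and 42.8% for Cdon.

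Among the co-receptors, Boc had 31.8, 35.4 and 35.6 CPM in Bap1KO, against 37.5, 46.2 and 42.2 CPM in WT. All Bap1KO libraries lay below all WT libraries by a small margin. Boc had a log2 fold change of -0.29 (SE 0.10), with an adjusted p of 0.092 without a block and 0.00717 with it, and it was -0.24, -0.38 and -0.25 within batches A, B and C. Cdon had 18.8, 5.99 and 9.89 CPM in Bap1KO, against 23.9, 15.1 and 22.3 CPM in WT. Bap1KO replicate 1 lay within the WT range, and the others lay below it. Cdon had a log2 fold change of -0.82 (SE 0.35), with an adjusted p of 0.159 without a block and 0.000499 with it (-0.93). Without Bap1KO replicate 1 it was -1.36 (adjusted p = 0.0202). Cdon was lower in Bap1KO in each batch, by log2 differences of -0.34, -1.33 and -1.17.

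The transducers and the other Gli factors did not pass the test between Bap1KO and WT with or without the block. Smo had 84.1, 67.4 and 79.5 CPM in Bap1KO, against 77.4, 83.4 and 97.0 CPM in WT (log2 fold change -0.16, adjusted p = 0.388). Sufu, the inhibitor that binds Gli proteins, had 31.2, 33.9 and 32.0 CPM in Bap1KO, against 33.5, 35.4 and 37.5 CPM in WT (-0.13, adjusted p = 0.268). Both overlapped between the groups. Gli2, the main activator, had 13.4, 9.09 and 12.03 CPM in Bap1KO, against 10.6, 9.61 and 11.4 CPM in WT (0.13, adjusted p = 0.779). Gli3, the main source of repressor, had 22.1, 15.4 and 14.2 CPM in Bap1KO, against 21.5, 19.0 and 17.9 CPM in WT (-0.17, adjusted p = 0.657). In Bap1KO the highest library of Gli2, Gli3, Smo and Cdon alike was replicate 1, whereas Gli1 was highest in replicate 3.

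**Figure D2:**
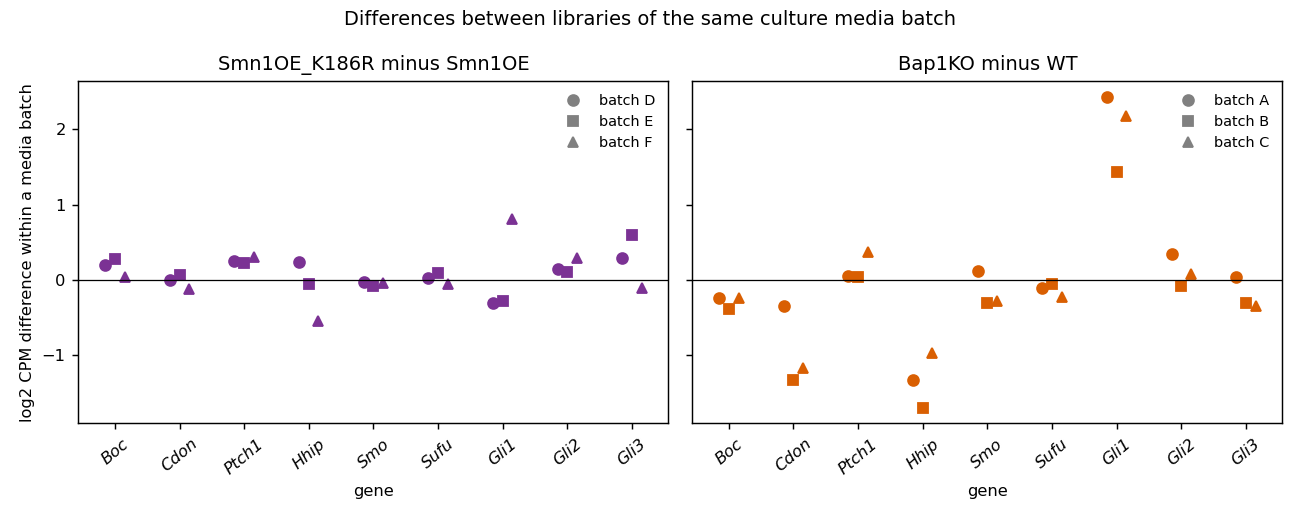
Log2 CPM difference between the 2 libraries of a culture media batch, for each gene; left, Smn1OE_K186R minus Smn1OE (batches D, E, F), and right, Bap1KO minus WT (batches A, B, C), with marker shapes for batches. On the right Gli1 and Ptch1 are positive in all 3 batches, Ptch1 by 0.03 to 0.38, and Boc, Cdon, Hhip and Sufu are negative in all 3; on the left Ptch1, Boc and Gli2 are positive and Smo is negative in all 3, each by at most 0.30.

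In the SMN groups, Gli1, Gli2 and Boc were lower than in Bap1KO, and no gene was called higher. In Smn1OE_K186R against Bap1KO, 4 of the 9 genes were called, all lower (Gli1, Gli2, Smo and Boc), against 32.6% of all tested genes called and 16.5% called lower. In Smn1OE against Bap1KO, 3 were called, all lower (Gli1, Gli2 and Boc), against 33.5% of all tested genes called and 17.7% called lower. Leaving out Bap1KO replicate 2 gave 6 calls in Smn1OE, and leaving out Bap1KO replicate 1 or 3 or Smn1OE_K186R replicate 1 gave 2 in Smn1OE_K186R. Over all genes, the first setting gave 5628 calls in Smn1OE, against 5567 with all libraries. The other settings gave 3436, 3968 and 4758 calls over all genes in Smn1OE_K186R, against 5416 with all libraries. In either direction, the share for Smn1OE is at the background of all genes in that comparison. Libraries did not overlap for 4 genes in each comparison, all below Bap1KO, against 43.7% of all tested genes for Smn1OE_K186R (22% below) and 48.7% for Smn1OE (24.7% below). The median log2 fold change over the 9 genes was -0.32 in Smn1OE_K186R and -0.40 in Smn1OE, and over all tested genes it was -0.01 in both. The 2 comparisons share the Bap1KO libraries.

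Gli1 stood at 0.316, 0.320 and 0.433 CPM in Smn1OE_K186R and 0.390, 0.388 and 0.246 CPM in Smn1OE, below every Bap1KO library and within the WT range given above. The log2 fold change of Gli1 against Bap1KO was -1.93 in Smn1OE_K186R (SE 0.50, adjusted p = 0.0129 by edgeR) and -1.97 in Smn1OE (SE 0.50, adjusted p = 0.0112). The Smn1OE_K186R call did not hold without Bap1KO replicate 3 (adjusted p = 0.0538). Against WT, Gli1 was not called in either SMN group, with a log2 fold change of 0.23 in Smn1OE_K186R (95% interval -0.91 to 1.38) and 0.19 in Smn1OE (-0.96 to 1.33). At 11 to 28 reads per library in these groups, differences of Gli1 within those intervals remain compatible with the data.

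Gli2 had 4.96, 8.13 and 5.65 CPM in Smn1OE_K186R and 4.50, 7.58 and 4.6 CPM in Smn1OE. Every SMN library lay below every Bap1KO and WT library, with replicate 2 (batch E) the highest in both SMN groups. Against Bap1KO the log2 fold change of Gli2 was -0.88 in Smn1OE_K186R (SE 0.24, adjusted p = 0.0146) and -1.05 in Smn1OE (SE 0.24, adjusted p = 0.00619). Against WT it was -0.75 in Smn1OE_K186R (SE 0.24, adjusted p = 0.0186) and -0.92 in Smn1OE (SE 0.24, adjusted p = 0.00656). The Smn1OE_K186R calls did not hold without some libraries: against Bap1KO without Bap1KO replicate 1 (0.052) or Smn1OE_K186R replicate 1 (0.0515), and against WT without Smn1OE_K186R replicate 1 (0.0716) or 3 (0.0597) or WT replicate 3 (0.0568).

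Gli3 had 16.7, 21.0 and 10.8 CPM in Smn1OE_K186R and 13.6, 13.8 and 11.7 CPM in Smn1OE. The Smn1OE_K186R libraries overlapped with every other group, and the Smn1OE libraries lay below all Bap1KO and WT libraries. Gli3 was called lower in Smn1OE against WT (log2 fold change -0.58, SE 0.22, adjusted p = 0.0426), a call lost under RLE scaling (0.0516) and without any one of the Smn1OE or WT libraries (up to 0.128) or Smn1OE_K186R replicate 1 (0.0528). It was not called in Smn1OE_K186R against WT (-0.27, adjusted p = 0.325). The ratio of Gli2 to Gli3 in RPKM was 0.415, 0.541 and 0.731 in Smn1OE_K186R, 0.462, 0.764 and 0.551 in Smn1OE, 0.844, 0.823 and 1.19 in Bap1KO and 0.687, 0.706 and 0.889 in WT. The ratio in each SMN library was below the ratio in each Bap1KO library, with an exact permutation p of 0.1 for each SMN group, the smallest possible, and 0.36 adjusted over the 18 ratio comparisons.

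Boc had 23.7, 25.5 and 20.1 CPM in Smn1OE_K186R and 20.8, 21.1 and 19.5 CPM in Smn1OE. The 6 SMN libraries lay together and below all Bap1KO and WT libraries. Against Bap1KO the log2 fold change of Boc was -0.57 in Smn1OE_K186R (SE 0.10, adjusted p = 0.00245) and -0.74 in Smn1OE (SE 0.10, adjusted p = 0.000621). Against WT it was -0.86 in Smn1OE_K186R (SE 0.10, adjusted p = 6.76e-05) and -1.04 in Smn1OE (SE 0.10, adjusted p = 2.32e-05). Boc kept its calls between the SMN groups and Bap1KO or WT under every alternative run.

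Cdon had 7.37, 10.2 and 5.82 CPM in Smn1OE_K186R and 7.37, 9.75 and 6.32 CPM in Smn1OE. The SMN libraries lay below all WT libraries and overlapped with Bap1KO, whose replicate 2 had 5.99 CPM. Against WT the log2 fold change of Cdon was -1.39 in Smn1OE_K186R (SE 0.36, adjusted p = 0.00656) and -1.38 in Smn1OE (SE 0.36, adjusted p = 0.00666). Against Bap1KO it was -0.57 in Smn1OE_K186R (adjusted p = 0.234) and -0.56 in Smn1OE (adjusted p = 0.239). Without Bap1KO replicate 2 it was called in both, at -0.88 in Smn1OE_K186R (adjusted p = 0.0465) and -0.88 in Smn1OE (adjusted p = 0.0457). That library lay nearest to the SMN libraries on the first principal component of all genes, which held 53.4% of the variance.

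Ptch1 had 7.77, 9.75 and 8.41 CPM in Smn1OE_K186R and 6.55, 8.37 and 6.81 CPM in Smn1OE. All pairs of groups overlapped for Ptch1, and the lowest libraries were Smn1OE replicates 1 and 3. The closest to a call was Smn1OE against Bap1KO, with a log2 fold change of -0.40 (SE 0.15, adjusted p = 0.0516). It passed with DESeq2 (0.0346), without Bap1KO replicate 2 (0.0283), without Smn1OE replicate 2 (0.0294) and without Smn1OE_K186R replicate 2 (0.0423). Against WT, the difference of Ptch1 was 0.02 in Smn1OE_K186R (95% interval -0.30 to 0.34) and -0.24 in Smn1OE (-0.55 to 0.08) on the log2 scale, neither called.

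Hhip had 1.28, 1.27 and 0.414 CPM in Smn1OE_K186R and 1.08, 1.31 and 0.606 CPM in Smn1OE. Both SMN groups overlapped with Bap1KO, and neither was called against it. Every Smn1OE and every Smn1OE_K186R library lay below every WT library, with the closest at 1.31 CPM in Smn1OE and 1.39 CPM in WT. The log2 fold change of Hhip against WT was -1.20 in Smn1OE_K186R (SE 0.46, adjusted p = 0.0447) and -1.18 in Smn1OE (SE 0.46, adjusted p = 0.0472). The Smn1OE_K186R call was lost in a fit of those groups alone (0.0652) and without Bap1KO replicate 3, Smn1OE replicate 1, Smn1OE_K186R replicate 2 or 3 or WT replicate 1 or 2. The Smn1OE call was lost under RLE scaling (0.0516) and without Bap1KO replicate 1 or 3, Smn1OE replicate 1 or 3, Smn1OE_K186R replicate 1 or 2 or WT replicate 1 or 2. Without WT replicate 2, the library with the most Hhip, these were -0.72 in Smn1OE_K186R (adjusted p = 0.225) and -0.70 in Smn1OE (adjusted p = 0.236).

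Smo had 63.5, 65.1 and 56.5 CPM in Smn1OE_K186R and 64.7, 69.0 and 58.2 CPM in Smn1OE. The SMN libraries lay below all WT libraries, and Smn1OE_K186R also lay below all Bap1KO libraries. Against WT the log2 fold change of Smo was -0.48 in Smn1OE_K186R (SE 0.11, adjusted p = 0.00328) and -0.43 in Smn1OE (SE 0.11, adjusted p = 0.00635). Against Bap1KO it was -0.32 in Smn1OE_K186R (adjusted p = 0.0404), a call lost in a fit of those groups alone (0.0624) and without Bap1KO replicate 1 or 3, Smn1OE replicate 1, Smn1OE_K186R replicate 1 or 3 or WT replicate 2 (up to 0.136), and -0.27 in Smn1OE (adjusted p = 0.0754). Sufu had 33.3, 36.1 and 33.5 CPM in Smn1OE_K186R and 32.6, 33.7 and 34.9 CPM in Smn1OE. It was the steadiest of the 9 genes, overlapping between all pairs of groups, and its largest log2 fold change in any comparison was -0.13.

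Against WT as a whole, 5 of the 9 genes were called lower in Smn1OE_K186R (Gli2, Smo, Hhip, Boc and Cdon) and 6 in Smn1OE (those and Gli3), against 50.5% of all tested genes called in Smn1OE_K186R and 50.4% in Smn1OE. Called lower were 26.5% of all tested genes in Smn1OE_K186R and 26.6% in Smn1OE. Libraries lay below WT without overlap for 5 genes in Smn1OE_K186R and 6 in Smn1OE, against 58.4% of all tested genes without overlap in Smn1OE_K186R (30.9% below) and 62.4% in Smn1OE (32.7% below). Without Smn1OE_K186R replicate 3, the called genes among the 9 in Smn1OE_K186R were 3. Over all genes that setting gave 7416 calls, against 8384 with all libraries. The median log2 fold change of the 9 genes was -0.48 in Smn1OE_K186R and -0.58 in Smn1OE, against -0.02 over all tested genes in both. The FAP, tenocyte and adipocyte marker sums, the sex-linked genes and the media batch differ between the same libraries, and their part in these values was not tested. The myogenic and endothelial sums of the SMN groups also lay below WT, whereas the macrophage sums overlapped. Tek held most reads of the endothelial markers. In each SMN group against WT, 3 of 4 tested endothelial markers had a positive log2 fold change, with 1 called higher and 1 lower. Of 4 tested myogenic markers, 1 was positive and 2 were called lower in each. Of 5 tested macrophage markers, 2 were called higher and 2 lower in each. Pericyte marker sums were not lower in the SMN groups. They were 202 to 339 CPM in Smn1OE_K186R, 214 to 314 CPM in Smn1OE and 188 to 234 CPM in WT. Myh11 held most reads of the pericyte markers. Of 6 tested pericyte markers, 4 had a positive log2 fold change against WT in each SMN group. None was called higher and 2 were called lower in each. In bulk RNA, fewer cells of a type and less RNA per cell cannot be told apart.

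**Figure D3:**
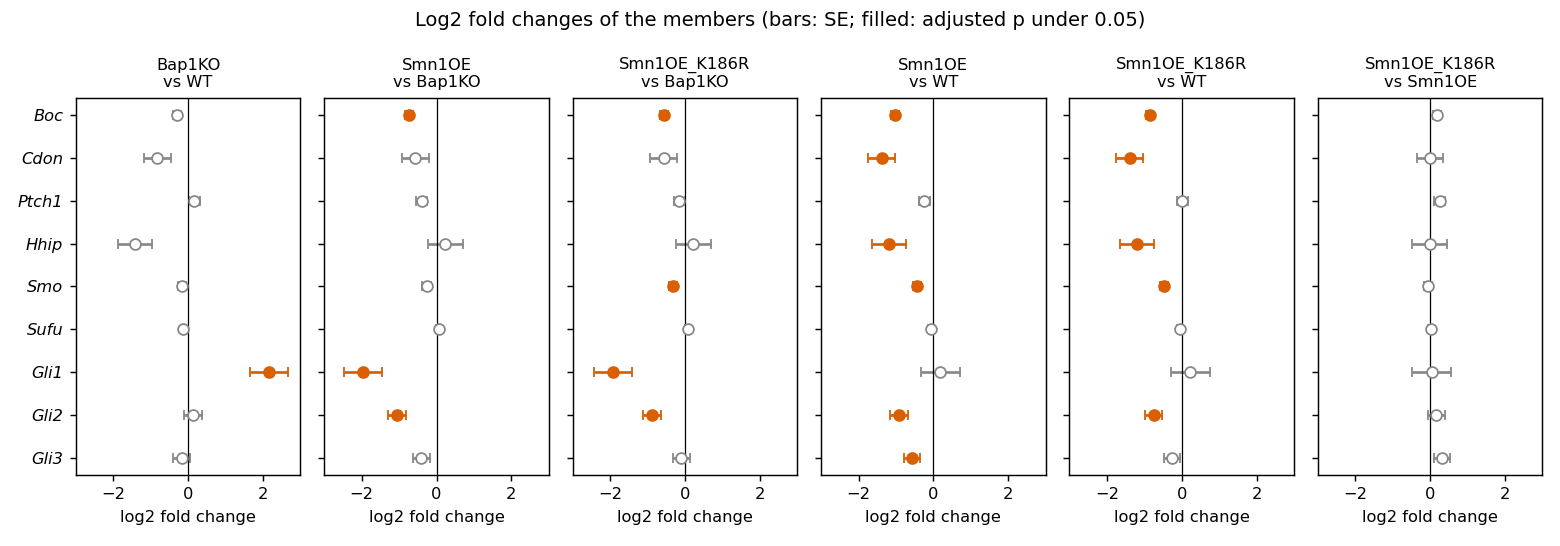
Log2 fold change of each gene in the 6 comparisons, first-named group over the second; bars are standard errors, and filled points have an adjusted p under 0.05 (edgeR quasi-likelihood test over 16597 genes). Gli1 alone is filled in Bap1KO against WT, 5 and 6 genes are filled on the negative side in Smn1OE_K186R and Smn1OE against WT, and none is filled in Smn1OE_K186R against Smn1OE.

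Smn1OE_K186R and Smn1OE were not told apart by any of the 9 genes: 0 were called by edgeR's quasi-likelihood test, 0 had an unadjusted p under 0.05, and all 9 overlapped, against 0% of all tested genes called and 6.78% without overlap. Over all genes, 388 had an unadjusted p under 0.05 and none passed adjustment. The 95% interval of the log2 fold change was -0.13 to 0.18 for Sufu, -0.29 to 0.18 for Smo, -0.05 to 0.40 for Boc, -0.06 to 0.57 for Ptch1, -0.16 to 0.78 for Gli3, -0.35 to 0.68 for Gli2, -0.78 to 0.77 for Cdon, -1.02 to 0.99 for Hhip and -1.09 to 1.18 for Gli1. Differences within these intervals remain compatible with the data. The intervals were widest for Gli1 and Hhip, the genes with the fewest reads. Ptch1 was higher in Smn1OE_K186R in 3 of 3 batches, by 0.25, 0.22 and 0.30, with an adjusted p of 0.387 in the blocked fit. With that block, 0.289% of all tested genes were called.

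The ligands that would start the pathway were scarce in these cultures. Shh had 0 reads in all 12 libraries, which allows up to 3 counts or 0.0436 to 0.0568 CPM per library. Ihh had 0 to 9 reads and was too low to test. Dhh had 31, 7 and 14 reads in Smn1OE_K186R, 10, 13 and 3 reads in Smn1OE, 7, 11 and 4 reads in Bap1KO and 1, 14 and 2 reads in WT. The groups overlapped for Dhh and no comparison was called. These limits cover counting error only.

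Gas1, a co-receptor like Boc and Cdon that is not among the 9 genes, had 4.89, 3.47 and 1.15 CPM in Smn1OE_K186R, 2.56, 3.44 and 0.454 CPM in Smn1OE, 32.5, 6.62 and 14.1 CPM in Bap1KO and 65.6, 25.1 and 57.6 CPM in WT. The SMN libraries lay below all others, and Bap1KO replicate 1 was above the lowest WT library. Against WT, the log2 fold change of Gas1 was -3.95 in Smn1OE_K186R (SE 0.73, adjusted p = 0.000962), -4.50 in Smn1OE (SE 0.76, adjusted p = 0.000528) and -1.48 in Bap1KO (SE 0.65, adjusted p = 0.174, and -1.64 with adjusted p = 3.37e-05 in the blocked fit). Against Bap1KO it was -2.47 in Smn1OE_K186R (adjusted p = 0.0187) and -3.02 in Smn1OE (adjusted p = 0.00819). Boc, Cdon and Gas1 thus all had their lowest means in the SMN groups, an intermediate mean in Bap1KO and the highest in WT.

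The 5 further lists of pathway genes, written from textbook knowledge, held 89 symbols and matched 88 genes, of which 83 were tested. In Bap1KO against WT, 15 were called (18.1%), 6 higher and 9 lower, against 9.72% of all tested genes, 3.36% higher and 6.37% lower. In the blocked fit 30 were called, 12 higher and 18 lower, against 29% of all tested genes, 11.9% higher and 17.2% lower. Without Bap1KO replicate 2 or 3 the calls were 9 and 4, and without WT replicate 1 or 2 they were 7 and 8. Over all genes, the same settings gave 991, 553, 688 and 835 calls, against 1614 with all libraries. Among ligand release genes, Disp2 (-1.73, adjusted p = 0.0352), a relative of the Dispatched exporter, and Hhat (-0.56, adjusted p = 0.0128), the palmitoyl transferase of the ligands, were lower. Of the 6 genes of the receptor list, the glypican Gpc4 was lower (-0.43, adjusted p = 0.0361), and in the blocked fit 5 were called, 2 higher and 3 lower. Those were Lrp2 (1.27) and Gpc6 (0.38), both higher, and Gas1 (-1.64), Gpc3 (-1.47) and Gpc4 (-0.44), all lower. Among regulators, the beta-arrestins Arrb1 (-0.92, adjusted p = 0.00947) and Arrb2 (-0.77, adjusted p = 0.00706) were lower, and the kinase Ulk3 (0.63, adjusted p = 0.0105) and the adenylyl cyclase Adcy5 (0.47, adjusted p = 0.0134) were higher. Of 24 cilium genes tested, 4 were called: the transport genes Ift81 (-0.58, adjusted p = 0.0302), Kif3a (-0.45, adjusted p = 0.0062) and Ift27 (-0.36, adjusted p = 0.0311) were lower and the phosphatase Inpp5e (0.35, adjusted p = 0.0358) higher. Of 25 genes reported as pathway targets in other settings, 2 were called, Grem1 higher (0.65, adjusted p = 0.0393) and Wnt5a lower (-0.63, adjusted p = 0.00697), or 8% of the list, against 9.72% of all tested genes. In the blocked fit 9 of the 25 were called, 4 higher and 5 lower, against 29% of all tested genes; the largest was Sfrp1, a secreted Wnt antagonist, lower by a log2 fold change of -1.34 (adjusted p = 0.000258). The block called 2 of 6 ligand release genes, both lower, 7 of 22 regulators, 4 higher and 3 lower, and 7 of 24 cilium genes, 2 higher and 5 lower.

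Against Bap1KO, 29 of the 83 genes were called in Smn1OE_K186R (34.9%), 14 higher and 15 lower, against 32.6% of all tested genes. In Smn1OE 30 were called (36.1%), 11 higher and 19 lower, against 33.5% of all tested genes. Both shares are near the background. The Smn1OE_K186R calls were 14 without Bap1KO replicate 1 and 17 without Smn1OE_K186R replicate 3. Over all genes, the same settings gave 3436 and 4404 calls, against 5416 with all libraries. The target list held 12 calls among its 25 genes in Smn1OE_K186R (48%), 5 higher and 7 lower, against 32.6% of all tested genes. In Smn1OE it held 14 (56%), 5 higher and 9 lower, against 33.5% of all tested genes. The largest were Sfrp1 (log2 fold change -3.07 in Smn1OE_K186R, adjusted p = 0.0141, and -4.13 in Smn1OE, adjusted p = 0.00409) and Bmp4, a growth factor (-2.14 in Smn1OE_K186R, adjusted p = 0.018, and -2.88 in Smn1OE, adjusted p = 0.00527). Sfrp1 averaged 56.5 CPM in Smn1OE_K186R, 27.04 CPM in Smn1OE, 474 CPM in Bap1KO and 1025 CPM in WT. The transcription factor gene Nkx3-2 was lower in both (-1.43 in Smn1OE_K186R, adjusted p = 0.0403, and -1.44 in Smn1OE, adjusted p = 0.0388), as was Hsd11b1, a steroid dehydrogenase, in Smn1OE (-1.45, adjusted p = 0.0387). Grem1, a BMP antagonist, was higher in both (1.14 in Smn1OE_K186R, adjusted p = 0.00119, and 1.01 in Smn1OE, adjusted p = 0.00184).

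Of the 24 cilium genes, 5 were called against Bap1KO in each SMN group, or 20.8%, below the 32.6% of all tested genes for Smn1OE_K186R and 33.5% for Smn1OE. In Smn1OE_K186R 2 were higher and 3 lower, and in Smn1OE 1 was higher and 4 were lower. Mks1, a gene of the cilium's transition zone, was lower in both (-0.62 in Smn1OE_K186R, adjusted p = 0.0209, and -0.84 in Smn1OE, adjusted p = 0.00473). Evc, which acts with Smo at the base of the cilium, was lower in both (-0.56 in Smn1OE_K186R, adjusted p = 0.0198, and -0.69 in Smn1OE, adjusted p = 0.00753). The transport gene Ift27 was lower in both (-0.49 in Smn1OE_K186R, adjusted p = 0.0031, and -0.44 in Smn1OE, adjusted p = 0.00487), and Ift88 was lower in Smn1OE (-0.43, adjusted p = 0.0264). Cep290, also of the transition zone, was higher in Smn1OE_K186R (0.68, adjusted p = 0.00747).

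Of the ligand release genes, 2 of 6 were called against Bap1KO in each SMN group (33.3%). Over all tested genes the share was 32.6% in Smn1OE_K186R and 33.5% in Smn1OE. Scube3, a secreted protein of the family that helps release ligand, was higher (1.25 in Smn1OE_K186R, adjusted p = 0.00818, and 1.42 in Smn1OE, adjusted p = 0.00409). Hhat was lower (-0.44 in Smn1OE_K186R, adjusted p = 0.0141, and -0.48 in Smn1OE, adjusted p = 0.00943). Of the 6 receptor genes, 3 were called in Smn1OE_K186R (50%) and 2 in Smn1OE (33.3%). Beside Gas1, Gpc4 was higher in both (0.43 in Smn1OE_K186R, adjusted p = 0.0151, and 0.44 in Smn1OE, adjusted p = 0.0126). Lrp2, a large endocytic receptor, was higher in Smn1OE_K186R (1.19, adjusted p = 0.0441). Of 22 regulators, 7 were called in each (31.8%), 4 higher and 3 lower in Smn1OE_K186R and 3 higher and 4 lower in Smn1OE. That share is near the share over all tested genes. Prkaca, the catalytic subunit of protein kinase A, was lower in both (-0.44 in Smn1OE_K186R, adjusted p = 0.00283, and -0.49 in Smn1OE, adjusted p = 0.00138), as was Adcy5 (-0.46 in Smn1OE_K186R, adjusted p = 0.00542, and -0.62 in Smn1OE, adjusted p = 0.00119). The kinase Gsk3b (0.47, adjusted p = 0.00167) and the ubiquitin ligase subunit Fbxw11 (0.40, adjusted p = 0.00372) were higher in Smn1OE_K186R. Arrb1 (-0.55, adjusted p = 0.0356) and the adenylyl cyclase Adcy6 (-0.47, adjusted p = 0.00295) were lower in Smn1OE.

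Against WT, the whole set held 44 calls in Smn1OE_K186R (53%), 16 higher and 28 lower, against 50.5% of all tested genes. In Smn1OE it held 46 (55.4%), 13 higher and 33 lower, against 50.4% of all tested genes, so that both shares are near the background. In Smn1OE_K186R against Smn1OE none of the 83 was called, and 1 was in the blocked fit, Timp3 (0.42, adjusted p = 0.0301).

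**Figure D4:**
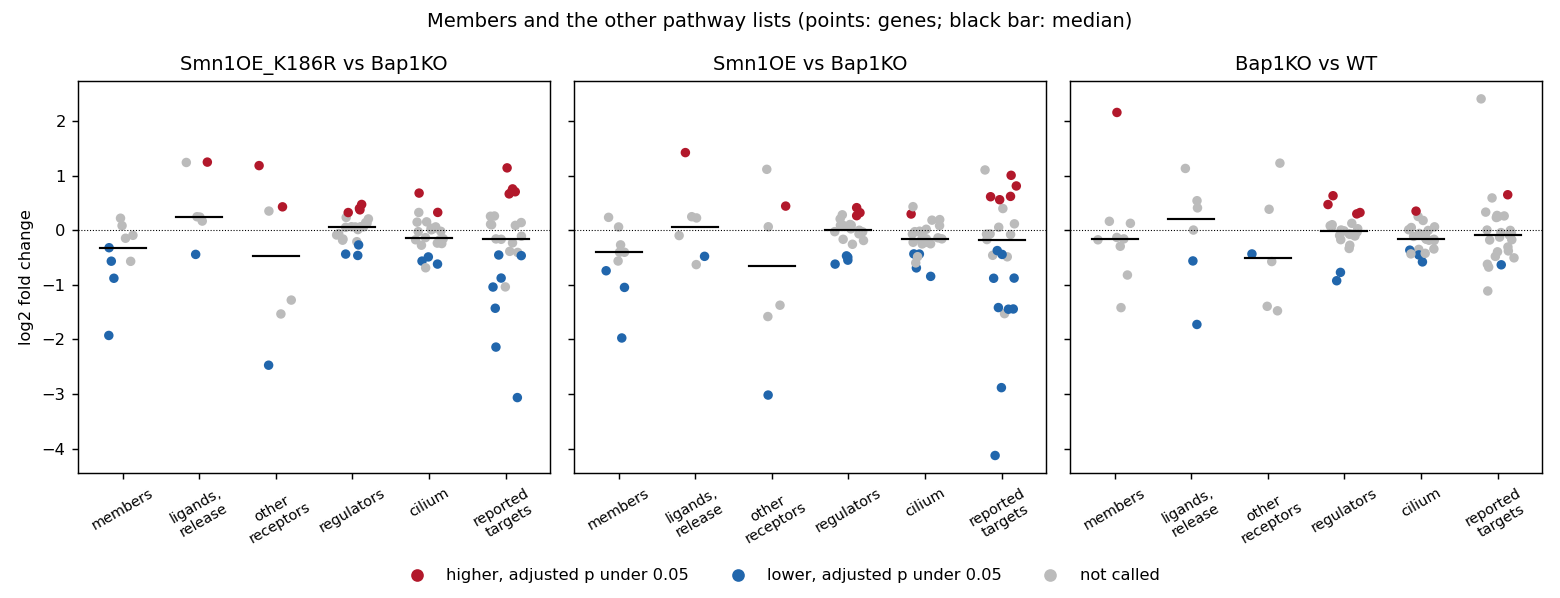
Log2 fold change of the 9 Hedgehog pathway genes (members) and of the 5 further pathway lists in Smn1OE_K186R against Bap1KO, Smn1OE against Bap1KO and Bap1KO against WT; each point is a gene, red is called higher, blue called lower, grey not called, and the black bar is the list's median. The list medians lie between -0.65 and 0.24, and the reported targets hold the largest negative values against Bap1KO.

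Across the 12 libraries, the genes whose centred log2 CPM profile was nearest to that of Gli1 were Vgf, Adam8, Diras2, Car9 and Nxph4, with root mean square differences of 0.48, 0.51, 0.55, 0.57 and 0.63 among 12456 genes ranked. Vgf averaged 11.2 CPM in Smn1OE_K186R, 9.39 CPM in Smn1OE, 29.0 CPM in Bap1KO and 10.4 CPM in WT, with Bap1KO highest as for Gli1. By nearness to Gli1, Gli2 ranked 271, Ptch1 507, Smo 2077, Gli3 6694, Boc 6752, Sufu 7174, Cdon 10185 and Hhip 12034. The genes nearest to Ptch1 were Orc3, Atp8b2, Wdr11, Mtmr1 and Fer, with differences of 0.08 to 0.11, and Gli1 ranked 11746. Genes outside the 9 with a mean under 1 CPM were left out of the ranking, whereas Gli1 itself averaged 0.589 CPM. The root mean square difference reflects the size of changes as well as their shape, so nearly level genes such as Sufu take middle ranks. The points of these profiles share libraries and depth, and the ranking is a description.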

How the data were processed

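RNA was measured in 12 paired-end TruSeq libraries, 3 in each of 4 groups taken from the genotype and treatment labels. Each library has its own deposited file of raw counts, by Ensembl gene ID. The submitters' processing notes name the build GRCm39 and the tools HTSeq 0.9.1, STAR 2.6.1, cutadapt 1.4.2, CASAVA 1.8.2 and DESeq2; their settings, annotation release and strand setting are not given in the sources used here. The 5 closing rows that name no gene held 11.1 to 14.6% of the records and were left out. Symbols and merged exon lengths came from GENCODE M21, which matched 55154 of 55335 IDs, all 9 genes included. Its coordinates were used for exon lengths and overlaps only.

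Counts were fitted with edgeR 4.0.16 in R 4.3.3 (TMM, filterByExpr with a minimum count of 10, quasi-likelihood F test over all 12 libraries, 8 residual degrees of freedom, common BCV 0.179). Fold changes carry a prior count of 0.125. A gene is called where its p, 2-sided and adjusted by Benjamini-Hochberg over 16597 genes, is under 0.05; gene p-values in the text are these unless named otherwise. The genes and lists were chosen with earlier results of these data known. All 9 genes are described in each comparison, and from each further list the called genes, at most 4 by size, with the ligands and Gas1; for the further lists against WT in the SMN groups, counts alone are printed. A further gene that this rule names is not reported here. Replicates of a group differed far beyond counting error (chi-square per degree of freedom 40.9 to 134), so the spread between libraries sets the precision of all but the low genes. Alternatives were RLE scaling, no filter, DESeq2 1.42.0, a fit of the compared groups alone, limma 3.58.1 voom with batch as a random effect, leaving out each library, and the media batch as a replicate block. The labels give the same media batch to same-numbered replicates, so they are paired; deviations from group means correlated at 0.22, 0.33 and 0.17 within batches A to C and 0.32, 0.23 and 0.34 within D to F.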

Additional observations from a re-analysis of the deposited data

How the results depend on the processing

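In Bap1KO against WT the number of called Hedgehog genes was 1, and it was 3 with no filter, 2 with DESeq2, 0 in a fit of those groups alone, 4 with voom and 4 with the replicate block. The further pathway genes gave 15 calls, against 30 with voom and 30 with the block. Over all genes there were 1614 calls, against 2614 with DESeq2, 4635 with voom and 4814 with the block; Smn1OE_K186R against Bap1KO gave 5416, and 3532 in a fit of those groups alone. In Smn1OE_K186R against Smn1OE the block called 1 further pathway gene and 48 genes in all, against 0 and 0. The block changed no other call of a Hedgehog gene than those given for Hhip, Boc and Cdon. Leaving out each library in turn gave 0 to 2 Hedgehog calls in Bap1KO against WT, 2 to 5 in Smn1OE_K186R and 3 to 6 in Smn1OE against Bap1KO, 3 to 5 in Smn1OE_K186R and 4 to 6 in Smn1OE against WT. The further pathway genes gave 4 to 17 calls in Bap1KO against WT, 14 to 29 in Smn1OE_K186R and 21 to 34 in Smn1OE against Bap1KO. All genes gave 553 to 2081 calls in Bap1KO against WT, 3436 to 5337 in Smn1OE_K186R and 3523 to 6098 in Smn1OE against Bap1KO. The cause of these shifts was not tested.

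Only log2 fold changes of uncalled genes changed sign, each on leaving out a library. Against Bap1KO, Hhip ran from -0.0039 to 0.58 in Smn1OE_K186R and from -0.0071 to 0.49 in Smn1OE, and Gli3 from -0.33 to 0.13 in Smn1OE_K186R. Against WT, Gli1 ran from -0.0559 to 0.58 in Smn1OE_K186R and from -0.10 to 0.54 in Smn1OE, and Ptch1 from -0.0775 to 0.0901 in Smn1OE_K186R. In Smn1OE_K186R against Smn1OE, Gli1 ran from -0.13 to 0.15, Gli2 from -0.0697 to 0.46, Smo from -0.12 to 0.0075, Hhip from -0.27 to 0.34, Sufu from -0.0145 to 0.0486 and Cdon from -0.25 to 0.19. Of 936 values of the Hedgehog genes under alternatives, 856 kept their direction and their side of the threshold. Gli1, at 11 to 28 reads outside Bap1KO, is limited by depth as well as by spread. Groups are 3 libraries each, and no alternative removes the confounding of SMN vector, media batch and sex-linked expression.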
